A study of Mus musculus with 15 samples.

Results

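The comparison described here is the knockout effect of Trappc1 in the bone marrow progenitor libraries numbered 1 and 2, with both progenitor types in a single fit. Libraries were chosen by the number that ends their title, which gave 7 of the 15 libraries of the series. The knockout group, labelled Trappc1KO, held 3 libraries: common myeloid progenitors (CMP) 1 and 2 and granulocyte-monocyte progenitor (GMP) 1. The wild-type group, labelled Trappc1WT, held 4: CMP 1 and 2 and GMP 1 and 2. All were sorted from mouse bone marrow with no treatment, and the sort kept cells that were lineage-negative, Sca1-negative, CD117-positive and CD34-positive, with CD16/32 low for CMP and high for GMP. The labels name neither the Cre line, the deleted exons, the strain, the age nor the sex of the mice. They also do not say that libraries came from separate animals, so the p-values below rest on the variation among the libraries at hand, some of which could be technical. Libraries of a shared number may come from 1 animal. KO and WT stand for the 2 genotypes from here on.

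Trappc1 encodes a small protein at the core of TRAPP, a family of complexes that tether transport vesicles and activate Rab GTPases on the route from the endoplasmic reticulum (ER) to the Golgi and in autophagy. CMP are bone marrow progenitors from which granulocytes, monocytes, megakaryocytes and red cells can form, and GMP are their progeny limited to granulocytes and monocytes. The step from CMP to GMP is marked by the loss of GATA factor and megakaryocyte transcripts and by a strong rise of granule protein transcripts such as Mpo, Elane and Prtn3, whose products are made on ER-bound ribosomes.

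Levels are given in CPM, the usual measure of counts relative to library size, here scaled by the TMM method. Library totals ran from 61278415 to 82286259 deposited units, or from 15319604 to 20571565 when divided by 4, since a fragment may be worth about 4 units. Several libraries stood apart before any test. The summed level of 14 genes listed as markers of the GMP side of the CMP to GMP step was 5149 and 5843 CPM in the KO CMP libraries, 23820 and 26860 in WT CMP, 43800 and 44690 in WT GMP, and 23560 in KO GMP 1. So KO GMP 1 lay at the level of WT CMP and not of WT GMP. Of 13 markers listed for the CMP side, Cpa3, a mast cell protease, was higher in WT GMP (205.1 and 191.7 CPM) than in WT CMP (45.86 and 66.44), against its listing. Without it the other 12 summed to 734.2 CPM in KO GMP 1, against 694 and 699.2 in WT CMP, 242.2 and 229.6 in WT GMP, and 1532 and 1069 in KO CMP. Cpa3 was at 380.7 CPM in KO GMP 1 and was set aside after its values were seen. With all 13, KO GMP 1 was at 1115 CPM, against 739.9 and 765.6 in WT CMP, 447.3 and 421.3 in WT GMP, and 1598 and 1120 in KO CMP. KO CMP 2 stood apart in T and NK cell genes, whose values are given with that list. Without it 1215 genes were higher and 1241 lower in KO in the test across all genes given below. The WT CMP libraries 1 and 2 in turn differed from the WT CMP libraries numbered 3 and 4. On a scale shared by all 15 libraries, their GMP side markers summed to 23610 and 26190 CPM, against 12810 and 13780 in WT CMP 3 and 4. Xist, the X-inactivation RNA of female cells, was at 112, 207 and 127 CPM in the KO libraries and at 2.19 or less in all 4 WT libraries. Transcripts of Y-linked genes were present in all 7: Ddx3y was at 65.9, 84.6 and 59.3 CPM in KO and between 87.5 and 102 in WT. The KO libraries thus held Xist and Y-linked RNA together. In all libraries numbered 3 and 4 Xist was at 0.3045 CPM or less. Whether these differences take part in the results below was not tested, except where values without a library are given. Leaving out X and Y genes, as done below, removes those genes only. It cannot test whether sex takes part in the other changes. In libraries 1 and 2 Xist was high in every KO library and low in every WT library.

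**Figure D1:**
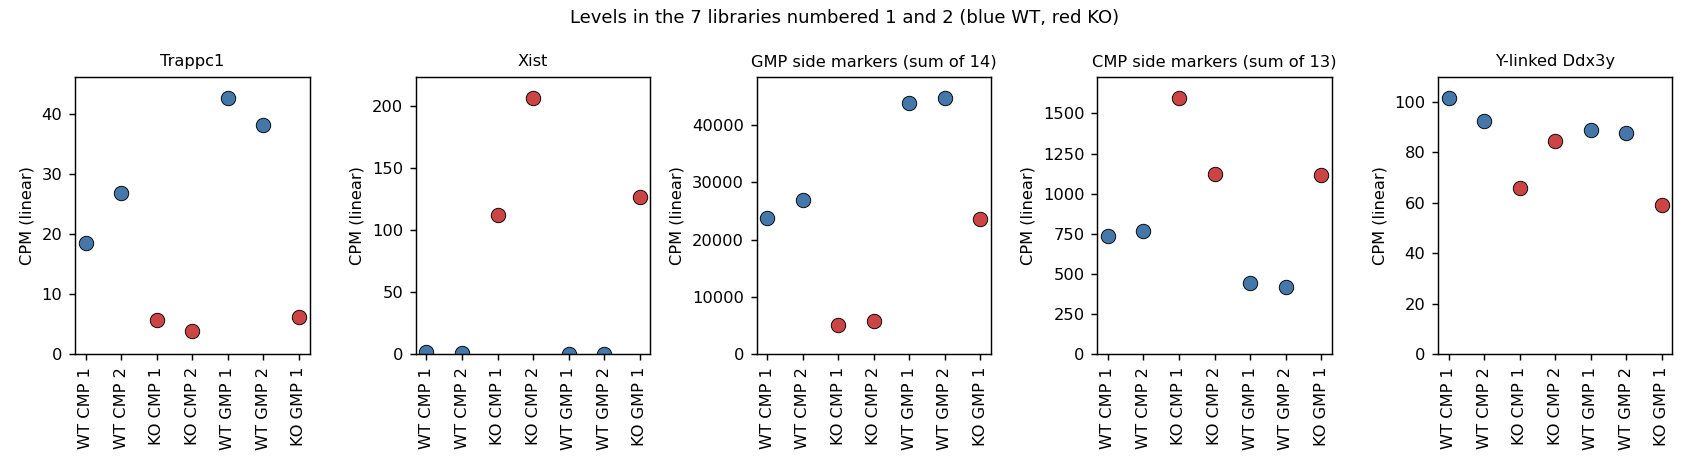
Levels in CPM on linear axes starting at 0, 1 point per library (blue WT, red KO), of Trappc1, Xist, the summed GMP side markers, the summed CMP side markers (all 13, Cpa3 included) and Ddx3y. KO lies below WT for Trappc1 and above it for Xist within each cell type, and KO GMP 1 (23560 CPM of GMP side markers) sits beside the WT CMP libraries.

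Trappc1 itself (ENSMUSG00000049299.14, GRCm38 chr11:69323980-69325793, plus strand, with all 5 annotated transcripts within that span) was lower in every KO library. It was at 5.70 and 3.89 CPM in KO CMP against 18.6 and 26.9 in WT CMP. In GMP it was at 6.28 CPM in KO against 42.7 and 38.2 in WT. The groups did not overlap in either cell type, and the change was -2.42 ± 0.20 on the log2 scale (SE; adjusted p = 0.000209, edgeR quasi-likelihood test), 5.36-fold lower in KO. An exact two-sided permutation test within cell types gave p = 0.0556, the smallest value that its 18 splits allow. In libraries 3 and 4 the effect was -0.59 log2 and did not reach an adjusted p under 0.05 (edgeR). The difference between the number sets was -1.83 log2 (adjusted p = 0.000129, edgeR). The deposited values are totals per gene and do not show which exons were deleted.

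Of 15715 genes tested, 1517 were higher in KO (9.65%) and 1463 were lower (9.31%) at an adjusted p under 0.05 (edgeR quasi-likelihood test, Benjamini-Hochberg over all tested genes). The median change over all genes was 0.03 log2. At least 1 log2 unit separated the genotypes for 668 of the higher and 345 of the lower genes, and at least 2 units for 287 and 121. KO and WT did not overlap within both cell types for 1497 of the called higher and 1458 of the called lower genes, beside 20.4% and 18.3% of all tested genes. The direction was shared by CMP and GMP for 1515 of the higher and 1462 of the lower genes. The fit that called them pools both cell types and so favours genes that agree. The shared direction and the lack of overlap are therefore no separate support. Across all 15715 genes the effects in CMP and GMP had a Pearson correlation of 0.34 and a Spearman correlation of 0.49. Among the higher genes the median change was 0.72 log2 in CMP and 0.99 in GMP, and among the lower ones -0.58 and -0.54. Without KO GMP 1, 758 genes were higher (5.09%) and 1168 lower (7.84%), with only CMP libraries left in the KO group. Of the genes called with all 7 libraries, 702 of 1517 and 1004 of 1463 were called again there. Without genes on X and Y, 1457 were higher and 1405 lower, which does not test a part of sex in the other genes.

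The genes with the largest changes fell into a few kinds. Beside Xist, the 12 higher genes with the largest change held 5 collagen chains, the collagen chaperone Serpinh1, the matrix genes Sparc and Ltbp2, the chemokines Cxcl12 and Cxcl14 and the cadherin Fat1. Sparc, a matrix glycoprotein, was at 12.8, 18.4 and 6.02 CPM in KO CMP 1, KO CMP 2 and KO GMP 1, and at 1.53 or less in WT. Col1a2, a fibrillar collagen chain, was at 24.6, 34.9 and 9.92 CPM in KO and at 4.25 or less in WT. Every KO library lay above every WT library for both genes. Most of the 12 lower genes were products of granulocytes and monocytes. Ngp, a neutrophil granule protein, was at 0.488, 0.252 and 1.09 CPM in KO and between 29.2 and 43.9 in WT. S100a8, a subunit of calprotectin, was at 0.836, 2.6 and 6.88 CPM in KO and between 147 and 190 in WT, a 52.6-fold difference. Clec4b2, Clec4a2 and Mgl2, lectin receptors of myeloid cells, were also among the 12, at -6.29, -4.67 and -4.004 log2. Lin28a, an RNA-binding protein that blocks let-7 maturation, was at 0.978 CPM or less in KO and between 5.71 and 7.95 in WT.

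**Figure D2:**
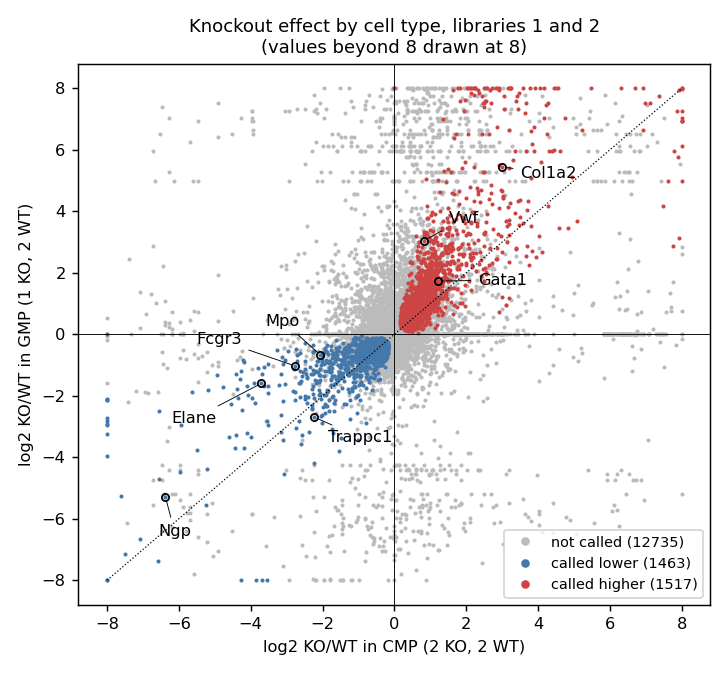
Log2 KO over WT in CMP (x axis; 2 KO and 2 WT libraries) against the same in GMP (y axis; 1 KO and 2 WT libraries), 1 point per tested gene, with called genes coloured, the dotted line marking equal effects and values beyond 8 drawn at 8. The 1517 genes called higher and the 1463 called lower have the same sign in both cell types, apart from 2 and 1 of them. The fit that called them pools both cell types and so favours such genes.

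The list named for primary granules, the first granules a neutrophil precursor fills, was lower as a group. It also holds myeloid genes of other kinds, such as the receptor Clec12a, so its counts are not those of granule proteins alone. Of 20 tested members, 16 fell and 0 rose, with a median of -1.43 log2 against 0.03 over all genes. Prtn3, the serine protease proteinase 3, was at 707 and 673 CPM in KO CMP against 2964 and 3293 in WT CMP. In GMP it was at 2515 in KO against 5819 and 5664 in WT. The KO values were below the WT values of the same cell type in each case, and the change was -1.77 ± 0.18 log2 (adjusted p = 0.00054). Hp, the haemoglobin-binding haptoglobin, was at 63.3, 77.8 and 225 CPM in KO and between 282 and 574 in WT. Clec12a, an inhibitory lectin receptor of myeloid cells, fell by 2.20 ± 0.22 log2, and Nkg7, a granule membrane protein, fell by 0.70 ± 0.08. In the fit with a difference between cell types, 9 of the 20 members were further below WT in CMP than in GMP, beside 1.07% of all genes. This rests on KO GMP 1 as the only KO library of its type, and with a WT library left out 1 to 4 members were called (3 without WT CMP 1, 1 without WT CMP 2, 4 without WT GMP 1 and 3 without WT GMP 2). Clec12a was at -2.65 log2 in CMP and -1.57 in GMP, and Prtn3 at -2.18 and -1.19.

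Late neutrophil genes, which belong to the secondary granules and cytosol of maturing cells, gave 18 lower and 1 higher of 25 tested, with a median of -2.52 log2. Chi3l3, a chitinase-like protein, was at 0.223, 0.403 and 0.875 CPM in KO, against 12.2 and 11.8 in WT CMP and 42.2 and 40.9 in WT GMP. S100a9, the partner of S100a8, was at 0.725, 1.31 and 2.06 CPM in KO and between 36.2 and 43.6 in WT. No KO library reached the lowest WT library for either gene. The member that rose, Padi4, encodes a peptidylarginine deiminase of neutrophils (0.62 log2, named because it is the only member in that direction). The list also holds Elane, a primary granule protease that the list above counts as well and that carries most of the list's RNA in the GMP and WT libraries. Without Elane the other 24 members summed to 283.8 and 279.2 CPM in KO CMP against 766.9 and 848.4 in WT CMP, and to 600 in KO GMP 1 against 1128 and 1102 in WT GMP. In bulk libraries fewer cells of a kind and less RNA per cell cannot be told apart.

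Monocyte and macrophage genes showed the same direction, with 19 lower and 0 higher of 25 tested (median -1.31 log2). Csf1r, the receptor for macrophage colony-stimulating factor, was at 29.1, 42.1 and 60.02 CPM in KO. In WT it was at 140 and 159 CPM in CMP and at 219 and 240 in GMP, 4.05-fold above KO. F13a1, the coagulation factor XIII A chain of monocytes, was at 137, 216 and 355 CPM in KO and between 678 and 1349 in WT. Ms4a6c, a tetraspan membrane protein, and Fcer1g, the shared Fc receptor gamma chain, fell by 1.57 ± 0.11 and 0.97 ± 0.07 log2. The Csf1r effect was -2.07 log2 in CMP and -1.94 in GMP, a difference of 0.13 ± 0.25 (adjusted p = 0.905). Of the 8 tested subunits of the phagocyte NADPH oxidase, which makes superoxide in neutrophils and monocytes, 7 fell and 0 rose. Ncf1 was at 109 and 117 CPM in KO CMP against 308 and 314 in WT CMP, and at 231 in KO GMP against 407 and 416 in WT GMP. Ncf4, Cyba and Cybb fell by 0.99, 0.66 and 1.95 log2.

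Transcription factors divided by lineage. Of 27 tested myeloid and erythroid factors, 12 fell and 7 rose. Irf8, which directs monocyte and dendritic cell formation, was at 93.8, 154 and 152 CPM in KO and between 448 and 556 in WT, a change of -1.85 ± 0.16 log2. Cebpd, a CCAAT-binding factor of granulocytes and monocytes, was at 16.3, 13.2 and 37.8 CPM in KO and between 50.3 and 90.4 in WT. Gata1, the master factor of red cells and megakaryocytes, was at 40.4, 27.7 and 22.4 CPM in KO against 14.3 and 15.02 in WT CMP and 7.05 and 6.43 in WT GMP. Gata2, which acts in stem cells, mast cells and megakaryocyte precursors, was at 326, 247 and 277 CPM in KO and between 99.3 and 148 in WT. The GATA factors were therefore high in all 3 KO libraries and low in all 4 WT libraries, the reverse of Irf8 and Cebpd. Cytokine receptors gave 10 lower and 3 higher of 24 tested. Cxcr4, the receptor of the marrow chemokine Cxcl12, fell by 1.11 ± 0.08 log2, Il6st, the shared signal chain of a cytokine family, by 1.29 ± 0.10, and the tumour necrosis factor receptor Tnfrsf1b by 0.82 ± 0.08.

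Many genes of megakaryocytes and of earlier cells, and some of red cells, were higher. Megakaryocyte and platelet genes gave 17 higher and 0 lower of 23 tested (median 1.30 log2). Selp, the platelet adhesion protein P-selectin, was at 128 and 115 CPM in KO CMP against 48.4 and 50 in WT CMP, and at 64.9 in KO GMP against 28.7 and 24.1 in WT GMP. Itga2b, the platelet integrin chain CD41, was at 385, 256 and 216 CPM in KO and between 77.9 and 185 in WT. Gp9, a subunit of the von Willebrand factor receptor, rose by 1.10 ± 0.19 log2. Erythroid genes gave 10 higher and 2 lower of 28 tested (median 0.63), and the others were not called. Among these, Car1, carbonic anhydrase 1, was at 43.27 and 8.306 CPM in KO CMP 1 and 2, on either side of WT CMP (20.13 and 23.01), and was picked after its values were seen. Car2, carbonic anhydrase 2, was at 363, 268 and 86.3 CPM in KO, against 112 and 125 in WT CMP and 23.3 and 24.2 in WT GMP. Hemgn, a nuclear factor of red cell precursors, and the factor Tal1 rose by 1.83 ± 0.21 and 0.61 ± 0.10 log2. Alas2, a haem synthesis enzyme of later red cells, was at 0.672 CPM or less in all 7 libraries and was not called (-0.23 log2; it was picked after its values were seen).

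Stem cell and multipotent progenitor genes gave 22 higher and 0 lower of 34 tested, with a median of 1.11 log2. Meis1, a homeobox cofactor of stem cells, was at 132 and 125 CPM in KO CMP against 67.4 and 61.4 in WT CMP, and at 41.5 in KO GMP against 16.8 and 16.3 in WT GMP. Msi2, an RNA-binding protein of stem cells, was at 229.6 and 230.2 CPM in KO CMP, against 107 and 108 in WT CMP. In GMP Msi2 was at 99.2 in KO against 48.2 and 44.6 in WT, so the change was 1.10 log2 in each cell type. Nrgn, a calmodulin-binding protein, and Erg, an ETS factor of stem and endothelial cells, rose by 1.60 ± 0.20 and 0.69 ± 0.09 log2. Without KO GMP 1 the stem cell list gave 17 higher and 1 lower, the megakaryocyte list 9 higher of 23 and the erythroid list 8 higher and 1 lower of 26.

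The genes that define the sort gate were measured too. Fcgr3, which encodes the CD16 part of the gate that parts CMP from GMP, was at 13.2 and 19.1 CPM in KO CMP against 100 and 118 in WT CMP. In GMP it was at 129 in KO against 280 and 246 in WT. The level in KO GMP 1 was thus near that of the WT CMP libraries, and the change was -2.76 log2 in CMP and -1.03 in GMP. The difference of 1.73 ± 0.26 (adjusted p = 0.0225) rests on that KO GMP library and was not called without any 1 of the 4 WT libraries (adjusted p = 0.0667 to 0.153). Cd34 rose by 0.56 ± 0.09 log2 and Fcgr2b, the CD32 gene, fell by 0.54 ± 0.15, a call lost in 6 of the 16 alternatives, 5 of them the loss of a single library (KO CMP 1, KO CMP 2, WT CMP 1, WT CMP 2 or WT GMP 1). Ly6a, the Sca1 gene that the sort selects against, was at 20.4, 32.4 and 6.46 CPM in KO, against 11.9 in both WT CMP libraries and 1.93 and 1.60 in WT GMP. Kit and Ptprc did not pass the test (0.30 and 0.39 log2).

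The knockout effect was set beside the wild-type step from CMP to GMP, taken from WT libraries 3 and 4, which share no library with it. In that step 2379 of 14478 genes were higher in GMP (16.4%) and 2946 lower (20.3%). Among the 14390 genes tested in both, 2363 were higher in GMP, and 958 of those (40.5%, or 65.5% of the 1462 genes lower in KO) were lower in KO, while 40 (1.7%) were higher. Of the 2931 genes lower in GMP, 931 (31.8%, or 65.7% of the 1416 genes higher in KO) were higher in KO and 74 (2.5%) were lower. So most genes that changed in KO moved against the direction of the CMP to GMP step. Across genes the 2 sets of log2 changes had a Pearson correlation of -0.53 and a Spearman correlation of -0.53, where genes are not independent and both axes share the cell types compared. The first principal component of the 7 libraries (54.2% of variance) ran in the same order, from KO CMP (-89.7 and -106.2) through WT CMP (-21.3 and -19.6) and KO GMP 1 (-5.3) to WT GMP (124 and 118.2). On the second component (13.8%), KO GMP 1 (65.1) and WT CMP (-57.9 and -58.7) lay at opposite ends. KO CMP (38.9 and 0.4) and WT GMP (7.8 and 4.4) lay between them.

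**Figure D3:**
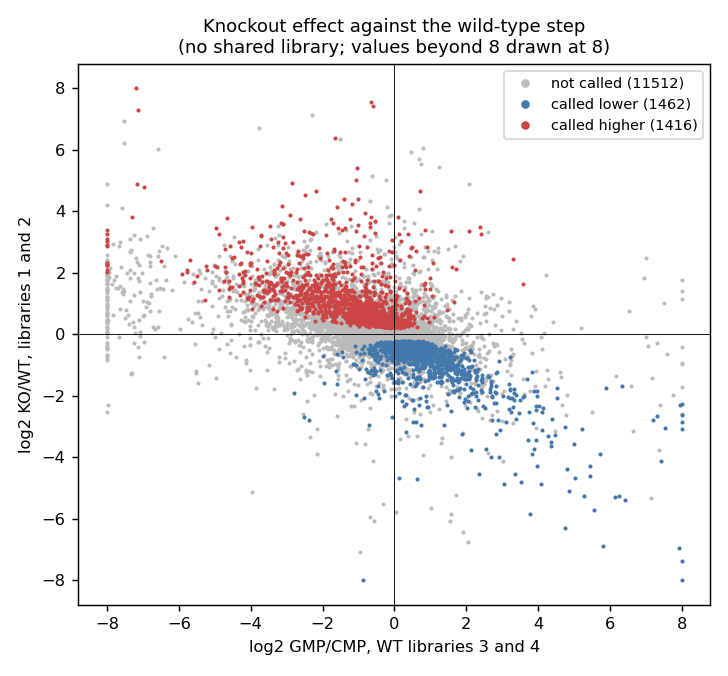
Log2 GMP over CMP in WT libraries 3 and 4 (x axis) against log2 KO over WT in libraries 1 and 2 (y axis), 1 point per gene tested in both, with genes called in the knockout effect coloured and values beyond 8 drawn at 8. Genes called lower in KO lie mostly to the right of 0 and genes called higher mostly to the left (Pearson correlation -0.53 over 14390 genes).

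Among genes of the compartment in which TRAPP works, more fell than rose, but most were not called. Of the 14 TRAPP subunits, all tested, 4 fell and 0 rose. Besides Trappc1 these were Trappc2 (-0.72 ± 0.20 log2), Trappc2l (-0.41 ± 0.11) and Trappc10 (-0.40 ± 0.09, a subunit of the TRAPPII complex). The calls of Trappc2 and Trappc2l were lost in 9 and 8 of the 16 alternatives (for each, 6 of these leave out a single library, any but KO CMP 1), and that of Trappc10 without KO CMP 2 or WT CMP 1. Trappc10 was at 70.2 and 74.5 CPM in KO CMP against 106 and 101 in WT CMP. Genes of ER to Golgi transport gave 13 lower and 2 higher of 50 tested, with a median of -0.12 log2. Of all tested genes, 9.31% were lower and 9.65% higher. Bet1, a vesicle SNARE, was at 37.6, 38.0 and 38.3 CPM in KO and between 50.6 and 67.7 in WT. Gorasp1, a Golgi stacking protein, fell by 0.61 ± 0.07 log2, Kdelr2, which returns escaped ER proteins, by 0.48 ± 0.08, and Mcfd2, a cargo receptor subunit, by 0.47 ± 0.07. Sec23a and Ergic1 were the 2 that rose, by 0.38 and 0.27.

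ER chaperones and genes of the unfolded protein response fell more uniformly, with 23 lower and 0 higher of 29 tested (median -0.47 log2). These genes are the classic targets of the sensors that respond to unfolded protein in the ER lumen. Hspa5, the main ER chaperone BiP, was at 746 and 851 CPM in KO CMP against 1327 and 1406 in WT CMP, and at 1261 in KO GMP against 1954 and 1904 in WT GMP. Its change was -0.71 ± 0.08 log2 (adjusted p = 0.000696), with KO below WT in each cell type. Dnajc3, a BiP cochaperone, was at 135, 146 and 196 CPM in KO and between 216 and 317 in WT. The oxidases Ero1l and Ero1lb, which drive disulfide formation, fell by 0.92 ± 0.10 and 1.03 ± 0.13 log2. In the promoter table of RefSeq (GRCm38.p6), 25 of the 29 genes had a promoter of 250 bases before to 50 after the start. The ER stress element (CCAAT, then any 9 bases, then CCACG), searched on both strands, was found in 9 of the 25 (36%) and in 20 of 10934 tested genes with a promoter (0.183%). Of the 9, Dnajc3, Ero1lb, Hsp90b1, Hspa5, Pdia6 and Syvn1 were called lower, and Calr, Canx and Creld2 were not called. The 250 bases before the start are shown for the 3 carriers that the naming rule picked, with the element in capitals (for Ero1lb on the reverse strand).
Hspa5, chr2:34771840-34772089, plus strand: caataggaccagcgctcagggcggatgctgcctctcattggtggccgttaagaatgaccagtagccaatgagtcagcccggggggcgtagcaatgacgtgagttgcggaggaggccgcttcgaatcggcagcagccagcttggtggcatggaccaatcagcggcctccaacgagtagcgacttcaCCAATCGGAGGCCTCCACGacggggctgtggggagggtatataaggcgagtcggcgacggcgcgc
Dnajc3, chr14:118937682-118937931, plus strand: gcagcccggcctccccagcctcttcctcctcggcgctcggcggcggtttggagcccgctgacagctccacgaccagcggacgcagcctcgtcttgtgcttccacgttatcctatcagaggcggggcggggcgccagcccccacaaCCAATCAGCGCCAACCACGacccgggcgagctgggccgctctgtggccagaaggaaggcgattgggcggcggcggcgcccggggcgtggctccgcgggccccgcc
Ero1lb, chr13:12565633-12565882, plus strand: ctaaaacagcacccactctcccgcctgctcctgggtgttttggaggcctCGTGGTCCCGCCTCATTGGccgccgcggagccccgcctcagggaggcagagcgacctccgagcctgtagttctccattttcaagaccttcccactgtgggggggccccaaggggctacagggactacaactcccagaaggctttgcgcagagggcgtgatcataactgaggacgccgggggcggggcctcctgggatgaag
A match is a description of the letters and does not show a bound site.

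The ER result depended on the reference. When the same 3 KO libraries were compared with WT libraries 3 and 4 instead, 1236 of 15844 genes were higher (7.8%) and 1470 lower (9.28%), and the ER chaperone list gave 4 lower and 0 higher (median -0.19 log2). Hspa5 was then at -0.27 log2 (adjusted p = 0.0934) and Dnajc3 at -0.11 (adjusted p = 0.527). ER to Golgi genes gave 3 lower and 3 higher, and Trappc10 and Mcfd2 were at 0.05 and 0.24 log2, neither called (adjusted p = 0.758 and 0.75). In that comparison genotype and number set cannot be told apart. WT CMP 1 and 2 held 1315 and 1371 CPM of Hspa5 on the scale of all 15 libraries, against 821 and 913 in WT CMP 3 and 4.

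Among genes of the lysosome and autophagy and of sterol synthesis, more were called lower than higher under both references, though most were not called. Autophagy and lysosome genes gave 13 lower and 1 higher of 33 tested, and 14 lower and 0 higher against WT 3 and 4. Ctsh, a lysosomal cysteine protease, was at 8.85, 17.6 and 17.4 CPM in KO and between 49.5 and 89.3 in WT, 4.23-fold higher than in KO. Ctsb, another cathepsin, Hexa, a subunit of hexosaminidase, and Lamp1, a lysosomal membrane protein, fell by 0.69, 0.72 and 0.68 log2. The cathepsins Ctsd and Ctsl were not called, and their KO values lay above WT within each cell type. Ctsd was at 377.9 and 344.1 CPM in KO CMP against 305.9 and 334.7 in WT CMP. In GMP it was at 451 in KO against 358.5 and 367.5 in WT. Cholesterol synthesis genes gave 10 lower and 0 higher of 25 tested, and 9 lower and 0 higher against WT 3 and 4. Fdps, the farnesyl diphosphate synthase, was at 42.7 and 40.6 CPM in KO CMP against 89.3 and 95.5 in WT CMP, and at 83.7 in KO GMP against 137 and 141 in WT GMP. Insig1, a sterol-regulated brake on the pathway, fell by 0.65 ± 0.09 log2, and the sterol enzymes Sc4mol and Sc5d fell by 0.73 and 0.69.

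Targets of p53 were higher. Of 27 tested, 14 rose and 1 fell, with a median of 0.47 log2. Cdkn1a, the cell cycle inhibitor p21, was at 105 and 110 CPM in KO CMP against 47.0 and 36.4 in WT CMP, and at 88.3 in KO GMP against 21.4 and 22.6 in WT GMP. Zmat3, an RNA-binding p53 target, was at 19.5, 21.4 and 20.5 CPM in KO and between 2.27 and 4.63 in WT, 5.7-fold lower than in KO. Perp, a membrane protein of p53-dependent cell death, was at 11.8, 7.42 and 13.8 CPM in KO and at 2.33 or less in WT. For each of these 3 targets every KO library lay above every WT library. Against WT 3 and 4, 9 rose and 4 fell, and Cdkn1a, Zmat3 and Perp remained higher at 1.04, 1.77 and 1.18 log2. Without KO GMP 1 the list gave 8 higher and 1 lower. In libraries 3 and 4, Cdkn1a differed between genotypes by 0.39 log2 (adjusted p = 0.28), and the difference between the number sets was 1.23 ± 0.17 (adjusted p = 0.000224).

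Of 13 CDK inhibitors and D-type cyclins, 4 rose and 0 fell, beside 9.65% and 9.31% of all tested genes. Those that rose were Cdkn1a, Ccnd1, Ccnd2 and Cdkn2d. The call of Cdkn2d was lost in 9 of the 16 alternatives, and against WT 3 and 4 it was at -0.25 log2. The cyclin Ccnd1 was at 83.0, 71.7 and 43.6 CPM in KO, against 31.7 and 34.7 in WT CMP and 13.1 and 14.8 in WT GMP, so an inhibitor of the cycle and a cyclin that drives it rose together. Among 30 genes of G2 and mitosis, 6 rose and 0 fell, but against WT 3 and 4 only 1 rose and 1 fell. Ccnb1, the mitotic cyclin B1, was at 126 and 111 CPM in KO CMP against 84.0 and 81.6 in WT CMP. Among 32 DNA replication genes 1 rose (Pole, the DNA polymerase epsilon, 0.38 log2) and 1 fell (the cyclin Ccne2, -0.56), a share below that of all genes. In the BCL2 family, which sets the threshold for apoptosis, 4 rose and 1 fell of 18 tested. Bok and Bax, which promote death, rose by 1.83 ± 0.25 and 0.48 ± 0.07 log2, and the protective Bcl2l1 rose by 0.73 ± 0.15. Bax was at 67.6, 72.0 and 74.6 CPM in KO and between 45.9 and 59.5 in WT. Against WT 3 and 4 Bax was at -0.05 log2 and the family gave 1 higher and 3 lower.

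Targets of ATF4 and CHOP, which carry the integrated stress response, gave 7 higher and 1 lower of 22 tested (median 0.27 log2), and 8 higher and 0 lower against WT 3 and 4. Slc7a5, an amino acid transporter, was at 184, 182 and 259 CPM in KO and between 130 and 159 in WT. Vldlr, a lipoprotein receptor, was at 59.3, 45.8 and 16.7 CPM in KO, against 17.6 and 18.9 in WT CMP and 1.22 and 1.88 in WT GMP. Shmt2 and Aldh18a1, enzymes of mitochondrial serine and proline metabolism, rose by 0.41 ± 0.08 and 0.39 ± 0.07 log2. The transcripts of Ddit3 (CHOP) and Atf4 themselves were not called (10.5 to 11.7 CPM of Ddit3 in KO and 10.8 to 14.2 in WT; both were picked after their values were seen).

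Interferon response genes rose against WT 1 and 2 and fell against WT 3 and 4. Of 34 tested, 15 rose and 1 fell, with a median of 0.39 log2. Irf7, a factor that amplifies the interferon response, was at 19.2, 23.5 and 11.2 CPM in KO, against 10.4 and 9.40 in WT CMP and 3.596 and 3.09 in WT GMP. Rsad2, the antiviral protein viperin, was at 14.5, 16.1 and 8.80 CPM in KO, against 6.05 and 6.39 in WT CMP and 1.70 and 1.90 in WT GMP. Oas3 and Oasl1, of the oligoadenylate synthetase family, rose by 1.34 ± 0.14 and 1.41 ± 0.17 log2. With WT 3 and 4 as the reference 0 rose and 24 fell (median -0.77), and Irf7 and Oas3 were called in the other direction at -1.38 and -0.83 log2. The WT libraries themselves differ. On the scale of all 15 libraries, Irf7 was at 10.3 and 9.17 CPM in WT CMP 1 and 2 and at 63.8 and 70.4 in WT CMP 3 and 4, and the KO CMP libraries 1 and 2 (18.7 and 23.2) lay between them. The interferon-stimulated response element (GAAA, then any 2 bases, then GAAA), searched on both strands, was found in 15 of the 24 members with a promoter (62.5%) and in 413 of 10934 tested genes (3.78%). It was held by 4.46% of the 1076 called higher genes with a promoter and by 4.49% of the 1068 called lower genes. The 250 bases before the start are shown for the 2 named members that carry the element, in capitals (for Rsad2 on the reverse strand).
Rsad2, chr12:26456453-26456702, minus strand: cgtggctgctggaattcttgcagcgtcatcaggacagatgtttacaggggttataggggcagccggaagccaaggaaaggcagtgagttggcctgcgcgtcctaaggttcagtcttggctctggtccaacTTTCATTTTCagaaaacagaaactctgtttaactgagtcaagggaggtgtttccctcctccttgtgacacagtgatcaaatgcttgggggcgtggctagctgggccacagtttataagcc
Oas3, chr5:120777660-120777909, minus strand: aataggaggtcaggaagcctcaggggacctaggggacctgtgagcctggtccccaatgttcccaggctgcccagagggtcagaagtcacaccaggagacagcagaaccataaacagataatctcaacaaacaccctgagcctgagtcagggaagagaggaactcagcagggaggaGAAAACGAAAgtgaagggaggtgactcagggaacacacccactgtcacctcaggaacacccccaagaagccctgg
Both genes rose against WT 1 and 2 and had the opposite sign against WT 3 and 4, Rsad2 at -0.28 log2 (adjusted p = 0.203).

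Markers of other cell types were checked as whole lists. Stromal and endothelial genes gave 20 higher and 1 lower of 29 tested (median 3.20 log2), and 20 higher and 0 lower against WT 3 and 4 (median 4.91). Their summed level was 393.2 to 585.3 CPM in KO and 260 to 318.4 in WT, and 0 of the 29 was at 0 in all 7 libraries. Much of the WT sum came from Pecam1 and Vcam1, given below, so the sum says little about the other members. Cxcl12, the chemokine of marrow stroma, was at 93.4, 129 and 50.2 CPM in KO, against 12.4 and 15.5 in WT CMP and 2.43 and 1.59 in WT GMP. Adipoq, the adipocyte hormone adiponectin, was at 4.63, 6.32 and 2.44 CPM in KO and at 0.58 or less in WT. Chrdl1, a BMP antagonist, and Cxcl14, a chemokine, rose by 4.24 ± 0.40 and 3.95 ± 0.38 log2. Endothelial markers divided. Pecam1 (115 to 165 CPM in KO, 112 to 124 in WT), Cdh5 (0.219 CPM or less in every library) and Kdr were not called. Emcn was called higher, at 9.214, 7.79 and 2.997 CPM in KO, against 4.334 and 4.58 in WT CMP and 0.5725 and 0.3791 in WT GMP. Vcam1, the member that fell, was at 8.35, 32.3 and 34 CPM in KO and between 94.8 and 122 in WT. Whether stromal RNA takes part in other results was not tested. Without KO GMP 1 the list gave 16 higher and 1 lower of 27.

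T and NK cell genes gave 3 higher and 1 lower of 19. The member that fell, Nkg7, is also on the granule list and carries much of the sum. Without it the other 18 members summed to 58.29 CPM in KO CMP 1, 226.4 in KO CMP 2 and 33.61 in KO GMP 1, against 72.27 and 73.93 in WT CMP and 5.546 and 7.625 in WT GMP. KO CMP 2 thus stood apart in this RNA, with 46.82 CPM of Il2rb, a receptor chain of T and NK cells, against 3.15 in KO CMP 1. The members that rose were Thy1 (22.1, 34.5 and 17.9 CPM in KO, 8.71 or less in WT), the factor Gata3 and the kinase Lck. Without KO CMP 2 neither Gata3 nor Lck was called (adjusted p = 0.0528 and 0.085), nor were they without KO GMP 1 (0.06 and 0.107), while Thy1 was called in every alternative. Lymphoid-primed genes gave 1 higher and 1 lower of 22, at 914.6 to 1471 CPM in KO and 923.9 to 1439 in WT, so the groups overlapped. Notch1 fell by 0.51 ± 0.10 log2. Dntt, the template-free polymerase of lymphoid precursors, was at 75.3 and 66.3 CPM in KO CMP, 54.4 and 73.1 in WT CMP, 3.72 in KO GMP 1 and 0.306 or less in WT GMP. Dendritic cell genes gave 1 higher (Tcf4) and 1 lower (Irf8) of 16, and MHC class II genes 0 higher and 1 lower of 10. H2-Ab1, an MHC class II chain, was at 80.9 and 158 CPM in KO CMP, 130 and 116 in WT CMP, 138 in KO GMP 1 and 36.3 and 37.3 in WT GMP. Class II RNA in KO GMP 1 was thus at the level of CMP libraries and not of WT GMP. Mast cell, basophil and eosinophil genes divided, with 4 higher and 7 lower of 24. Il1rl1, a cytokine receptor of mast cells and basophils, was at 45.2 CPM in KO GMP 1 and between 7.80 and 15.7 in the other 6 libraries. Tpsb2, a mast cell tryptase, was at 8.12 CPM in KO GMP 1 and at 0.0179 or less elsewhere, so its call rests on that library. Cma1, a mast cell protease that also rose, was likewise high in KO GMP 1 alone. It was at 39.18 CPM there, 0.05576 and 0.5034 in KO CMP and 1.216 or less in WT. Gata2, also among the 4 that rose, was high in all 3 KO libraries, as given above. Ear2, an eosinophil ribonuclease, was at 0.223, 0.176 and 1.44 CPM in KO, against 0.642 and 0.965 in WT CMP and 9.75 and 7.97 in WT GMP.

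Other lists were mixed or near the share of all genes. Glycolysis enzymes gave 5 higher and 3 lower of 21, with isoforms moving in opposite directions. The glucose transporter Slc2a3 and the phosphofructokinase Pfkm rose by 1.13 ± 0.07 and 0.70 ± 0.08 log2, while Ldhb and Hk3 fell by 0.97 and 0.71. NRF2 and antioxidant genes gave 4 higher and 5 lower of 25. Hmox1, the haem-degrading oxygenase, was at 9.23, 17.9 and 20.7 CPM in KO and between 3.90 and 5.81 in WT, whereas Gsr, glutathione reductase, and Prdx5, a peroxiredoxin, fell by 1.14 and 0.99 log2. Calcium store genes gave 1 higher and 4 lower of 26. Ryr3, a calcium release channel of internal stores, was at 0.655, 0.856 and 0.592 CPM in KO and between 4.41 and 8.14 in WT. The mitochondrial uniporter Ccdc109a (Mcu) fell by 0.64 ± 0.10. Cytosolic heat shock genes gave 2 higher and 2 lower of 18, the latter being Hspa1a and Hspa1b (-1.68 and -1.90), near-identical genes whose reads the counting could split. Immediate early genes, which respond to handling within minutes, gave 3 higher and 1 lower of 24. Ribosome biogenesis genes gave 2 higher and 0 lower of 27.

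Few genes were called as differing in the knockout effect between CMP and GMP, in a fit with 3 residual degrees of freedom. A gene not called there is not shown to have the same effect in both. List medians were 0.65 log2 in CMP and 2.31 in GMP for megakaryocyte genes, and -1.42 and -1.21 for monocyte genes. The difference, GMP minus CMP, was above 0 for 168 genes (1.07%) and below 0 for 15 (0.0955%), with KO GMP 1 as the only KO library of its type, assumed to vary like the others. Taken within each cell type in that fit, 808 genes were higher (5.14%) and 1082 lower (6.89%) in KO CMP, and 1266 were higher (8.06%) and 827 lower (5.26%) in KO GMP. Across genes the effects in CMP and GMP had a Pearson correlation of 0.34 and a Spearman correlation of 0.49. Vwf, the platelet adhesion factor, rose by 0.81 log2 in CMP (126 and 109 CPM in KO, 63.3 and 70.5 in WT) and by 3.04 in GMP (40.9 in KO, 4.87 and 5.09 in WT). Chst13, a sulfotransferase, was at 3.499 and 3.30 CPM in KO CMP against 29.6 in both WT CMP libraries, and at 34.4 in KO GMP against 58.6 and 56.3 in WT GMP. Fn1, fibronectin, was at 5.57 CPM or less in all CMP libraries, at 1.97 in KO GMP 1 and at 39.3 and 44.1 in WT GMP. In each of these genes KO GMP 1 lay nearer to the CMP libraries than the WT GMP libraries did. Cux2, a homeobox factor, was at 0 in KO GMP 1, at 0.753 CPM or less in CMP and at 5.72 and 7.33 in WT GMP.

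Most of the effect was not shared by libraries 3 and 4. There 2 genes were higher and 2 lower (0.0124% each; edgeR quasi-likelihood test). The difference between the number sets was above 0 for 1172 of 16183 genes (7.24%) and below 0 for 1229 (7.59%). Of the 1517 higher genes, 838 (55.2%) had the same sign in libraries 3 and 4, and of the 1463 lower genes 989 (67.6%), while 47.7% of all genes were above 0 there. Their median changes there were 0.02 and -0.05 log2. Across genes the effects in the number sets had a Pearson correlation of 0.04 and a Spearman correlation of 0.07. The WT libraries of the number sets also differed, with 1809 genes higher (11.2%) and 1851 lower (11.4%) in WT 1 and 2. The labels do not link the numbers to a batch, and a batch and a number set cannot be told apart. Against WT 3 and 4, 728 of the 1517 higher and 688 of the 1463 lower genes were called in the same direction, and 18 and 2 in the other. Granule (0 higher, 14 lower), late neutrophil (1 and 17), monocyte (0 and 19), stem cell (14 and 0) and megakaryocyte (14 and 0) lists had the same direction under both references.

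**Figure D4:**
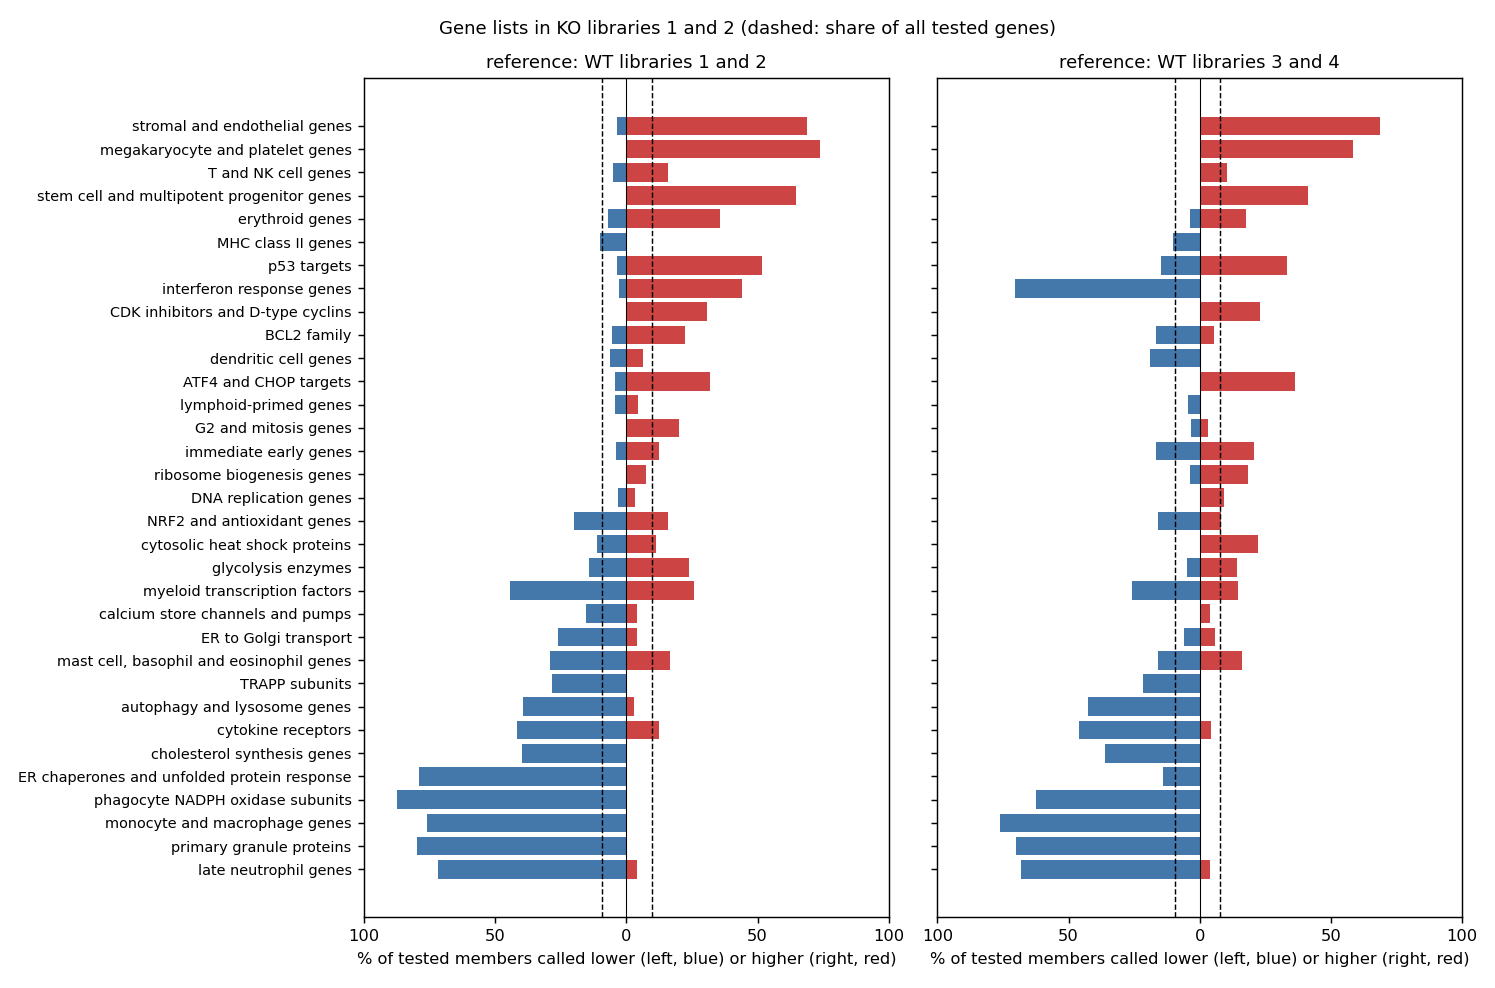
Share of tested members called lower (left, blue) or higher (right, red) in each gene list for KO libraries 1 and 2, against WT 1 and 2 (left panel) and against WT 3 and 4 (right panel), with dashed lines at the share of all tested genes. Granule, neutrophil, monocyte, stem cell, megakaryocyte and stromal lists look alike in both panels, the ER chaperone list shrinks from 23 to 4 lower members and the interferon list turns from 15 higher to 24 lower.

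Levels in all 15 libraries show the forms this took, for 6 genes picked after their values were seen. Elane, neutrophil elastase, was at 228 and 335 CPM in KO CMP 1 and 2, below WT CMP 3 and 4 (1022 and 1183) and further below WT CMP 1 and 2 (3488 and 3880). In KO GMP 1 it was at 2493, against 7303 to 7780 in the other 6 GMP libraries. S100a8 was at 146 and 178 CPM in WT CMP 1 and 2 and at 7.21 and 9.69 in WT CMP 3 and 4, and KO CMP 1 and 2 (0.815 and 2.57) lay below both. Meis1 in KO CMP 1 and 2 (128 and 123) was above all other CMP libraries (59.9 to 80.8). Cdkn1a was at 103 and 108 in KO CMP 1 and 2 and at 84.1 and 83.7 in KO CMP 3 and 4, above all WT CMP libraries (35.45 to 59.99). Hspa5 in KO CMP 1 and 2 (727 and 839) was near WT CMP 3 and 4 (821 and 913), while KO GMP 1 (1221) was below all 4 WT GMP libraries (1603 to 1888). Irf7 in KO CMP 1 and 2 lay between the WT CMP sets, and in KO GMP 1 (10.8) between the WT GMP sets (2.998 to 3.474 and 19.9 to 20.8).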

How the data were processed

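RNA was sequenced from sorted mouse progenitors with a SMARTER mRNA-Seq kit, per the labels' protocols, and aligned with HISAT to mm10, per the submitters' processing notes. For the counting tool and annotation, none is given in the sources used. The deposited files hold expected or estimated counts per gene symbol that the authors wrote as whole numbers. Multiples of 4 made up 38.0% of 40915 values between 1 and 40, where an even spread gives 25%, so a fragment may be worth about 4 units. Each file listed 23337 symbols, of which 25 had turned into dates. No pair among 105 shared more than 1.71% of values.

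The deposited units of the 7 libraries were fitted with edgeR 4.0.16 (R 4.3.3; filterByExpr, TMM, quasi-likelihood test, genotype and cell type as terms, 4 residual degrees of freedom), with Benjamini-Hochberg adjustment over all tested genes and a threshold of 0.05. A fit with an interaction gave the difference between cell types, and a fit of all 15 libraries the difference between number sets. The WT step used WT libraries 3 and 4 alone. CPM of the 7 libraries and of all 15 stand on separate TMM scales. DESeq2 1.42.0 was an alternative, with other scaling, no filter, units divided by 4, each library left out, a replicate block, other references and sex chromosome genes left out. The statistics were tested on simulated data. The members and gene lists were chosen with earlier results of these data known. Genes named were Trappc1, the 12 largest called changes in each direction (mean of at least 5 CPM in a group, groups not overlapping within cell types), up to 4 members per list with the smallest p, all sex and sort gate genes, and the 5 genes per direction with the smallest p for each difference. Any other gene with values was picked after its values were seen. Promoters are RefSeq's (GRCm38.p6), 32851 in number, and the Trappc1 annotation is from GENCODE on GRCm38. Results for some genes are not reported here.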

Additional observations from a re-analysis of the deposited data

Results flagged for a closer look

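The knockout effect differed between libraries 1 and 2 and libraries 3 and 4, by the test of the difference itself, for 1172 genes upward and 1229 downward. Among the named genes the neutrophil genes Ngp, Chi3l3 and S100a9 had differences of -6.0 ± 0.41, -5.70 ± 0.38 and -5.27 ± 0.32 log2 (edgeR, adjusted p = 1.92e-06, 1.63e-06 and 8.38e-07). Ly6c1, a surface antigen of monocytes, was at -3.85 ± 0.25 and Acpl2, an acid phosphatase-like gene, at -1.25 ± 0.07. In the other direction were P-selectin (Selp) at 1.42 ± 0.11, the sulfatase Sulf2 at 2.41 ± 0.18, Psrc1 at 1.36 ± 0.11, Dmwd at 1.58 ± 0.13 and the kinase Fyn at 1.36 ± 0.11.

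Within libraries 1 and 2 the effect differed between cell types, GMP minus CMP, for 168 genes upward and 15 downward, with KO GMP 1 as the only KO library of its type. Upward differences were 2.39 ± 0.15 log2 for Chst13, 5.64 ± 0.38 for Clca1, 2.22 ± 0.17 for Vwf, 2.43 ± 0.20 for the basement membrane collagen Col4a1 and 2.20 ± 0.19 for the cadherin Celsr3. Downward differences were -3.65 ± 0.30 for Fn1, -1.82 ± 0.17 for Fam168b, -1.27 ± 0.17 for Rap2a and -1.15 ± 0.16 for Tsr2. Cux2 had a fitted difference of -10.49, which is no measure of size since it was at 0 CPM in KO GMP 1.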

How the results depend on the processing

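Changing the scaling, the filter, the count unit, the tool or the reference kept the direction of most named genes. Of 150 called, Trappc1 among them, 82 genes other than Trappc1 kept direction and call under every one of the 16 alternatives that held the gene. A gene absent from an alternative, as genes on X and Y could be, was not counted against. The call was lost in at least 6 of the 16 alternatives for 16 genes: Cdc20, Cdkn2d, Cenpf, Cyr61, Eif2s3y, Fcgr2b, Hsp90ab1, Hspa9, Klf4, Lax1, Lck, Nop14, Nr4a2, Trappc2, Trappc2l and Uty. The knockout effect gave 718 higher and 859 lower genes in CMP alone, and 758 to 1300 higher and 924 to 1261 lower with a library left out; without KO GMP 1 there were 758 higher, without WT CMP 1 957 and without WT CMP 2 976. Calls that were higher made up 50.9%, and 39.4% without KO GMP 1. The difference between cell types gave 507 and 97 genes with DESeq2 and 8 to 534 upward and 2 to 48 downward with a library left out, so it rests on single libraries. The difference between number sets gave 728 to 1297 and 946 to 1329.

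For the 3 pairs of groups that hold both numbers, samples of a shared number did not deviate together (correlations 0.019, 0 and -0.001). KO GMP has no library 2 and could not be checked, and a shared animal was not tested. The numbers were not treated as pairs. With the replicate block the knockout effect gave 1063 and 1096 genes, the cell type difference 114 and 7, and the number set difference 1136 and 1261.

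With WT 3 and 4 as reference the sign differed for Trappc10 (0.049 log2), Mcfd2 (0.24), Dntt (-0.36), Oas3 (-0.83), Oasl1 (-0.53), Irf7 (-1.38), Rsad2 (-0.28), Cdc20 (-0.048), Ccne2 (0.009), Cdkn2d (-0.25), Bax (-0.047), Camk2d (-0.046), Ly6a (-0.35) and Kdm5c (0.14). Without KO GMP 1 and in CMP alone it differed for H2-Ab1 (-0.062 in each), Tsix (-1.114 and -1.115), Kdm6a (-0.139 in each) and Tsr2 (0.319 in each). With a library left out, H2-Ab1 ran from -0.062 to 1.194, Tsix from -1.114 to 3.184, Kdm6a from -0.139 to 0.154, Tsr2 from -0.25 to 0.319, Kdm5c from -0.093 to 0.048 and Kdm5d from -0.153 to 0.032. Kdm5d was at 0.0 under RLE and DESeq2. The cause was not tested. A value under about 4 units may be less than 1 fragment, which limits low genes.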
